A study of Mus musculus with 2 samples.

Results

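The interferon regulatory factors (IRFs) are a family of transcription factors, and 8 of their genes, Irf1, Irf2, Irf3, Irf4, Irf5, Irf7, Irf8 and Irf9, were followed here in regulatory T (Treg) cells of injured mouse muscle. They were taken by symbol from a count table of 23337 genes, all 8 were present, and other genes of the family were not analysed here. The table held 2 libraries, each of 5000 Treg cells sorted into Trizol from male mice aged 8 weeks on a C57BL/6 background with the Foxp3-IRES-GFP reporter allele, in which green fluorescent protein is made wherever the Treg factor Foxp3 is expressed. In both groups, tibialis anterior, quadriceps and gastrocnemius muscles received cardiotoxin, a venom protein that destroys muscle fibres, and the tissue was taken 4 days later. The IL-33 group also received 0.3 ug of recombinant IL-33, an alarmin cytokine, into the muscle, and the PBS group received the saline vehicle. The labels do not say how many animals gave each library. Each group is a single library, so nothing was tested and no difference was checked in replicates, and the words "higher" and "lower" describe these libraries, not the treatments. The words "with IL-33" and "with PBS" name a library.

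All IRFs share an amino-terminal DNA-binding domain that recognises GAAA-containing elements, and they differ in what switches them on. Irf1 is an interferon-induced activator, and Irf2 binds the same sites and is known mainly as its antagonist. Irf4 and Irf8 are immune-restricted factors that bind DNA weakly alone and act with partners such as PU.1 or BATF and JUN proteins. In Treg cells, Irf4 is induced by the antigen receptor and is known to be required for effector Treg differentiation. Irf3, Irf5 and Irf7 are phosphorylated downstream of innate sensors, and Irf9 takes part in the response to type I interferon.

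Library totals were 4080791 deposited counts with IL-33 and 1573707 with PBS. Each level is in CPM, which scales counts to a common library total, with an exact 95% Poisson interval that covers counting error only, since the protocol names no molecular identifiers and amplified reads are not independent molecules. Ratios divide the IL-33 value by the PBS value, with an exact conditional 95% interval of the same kind. A gene was compared when it reached 5 CPM in at least 1 library, and a call of higher or lower needed a 2-fold difference after 1 CPM was added to both values, which shrinks the fold of low genes. Of 11 symbols that define Treg and CD4 T cells, 8 were matched in the table. In the IL-33 and PBS libraries, Ctla4 was at 6186 and 6246 CPM and Ikzf2 at 1681 and 1925 CPM. Il2ra was at 613 and 851 CPM and Cd3d at 1017 and 804 CPM. Foxp3, the defining Treg factor, had 40 counts and 1 count, or 9.80 and 0.635 CPM. It passed the floor through the IL-33 library only and was called higher. Its ratio of 15.4 (2.61 to 624) rests on 1 count in the PBS library. Of the 8 matched genes, 1 was higher, 0 were lower and 7 lay within 2-fold. Over all genes compared, 15.5% were higher and 16.3% lower.

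Irf2 was the member that differed most, at 2.31 times its PBS level in the IL-33 library, while Irf5 stood at 0.515 times its PBS level. Irf4 and Irf1, the most highly expressed members per length of merged exons, stood at 0.713 and 0.856 times, Irf9 at 1.24 times, and the counting intervals of Irf3, Irf7 and Irf8 held 1. Under each of the other 3 scalings tried the interval of Irf1 held 1 and that of Irf8 left it out, so these 2 members lie at the edge of counting error. All 8 members passed the floor of 5 CPM. Of these, 1 was at least 2-fold higher, 0 were at least 2-fold lower and 7 lay within 2-fold. Over all 9005 genes compared, 15.5% were at least 2-fold higher and 16.3% at least 2-fold lower, so the members' count is near the background. The counting interval of the ratio left out 1 for 5 of the 8 members (62.5%), 2 above and 3 below, and for 63.7% of all genes compared. Ratios beyond counting error were thus as common across the whole table as among the IRF genes. The median log2 fold of the members was 0.01, and that of all genes was -0.08.

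**Figure D1:**
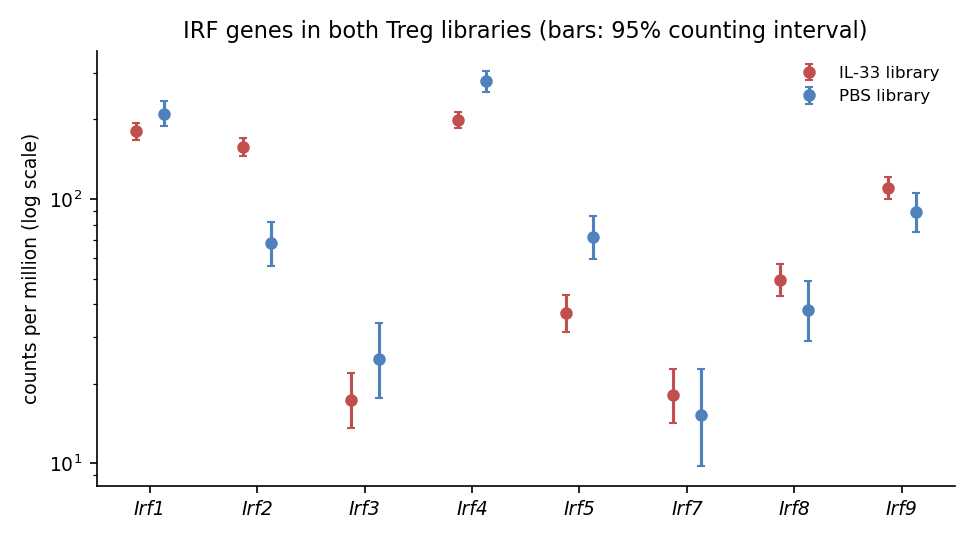
Level of each IRF gene in CPM (log axis) in the IL-33 library (red) and the PBS library (blue), 1 library each; bars are exact 95% Poisson intervals. The intervals of the 2 libraries are far apart for Irf2 (157 against 68.0 CPM) and Irf5 (37.0 against 71.8 CPM) and overlap for Irf1, Irf3, Irf7, Irf8 and Irf9.

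Summed over the 8 genes, IRF counts did not differ between the libraries beyond counting error. The sum was 3135 counts, or 768 CPM (742 to 796), with IL-33 and 1253 counts, or 796 CPM (753 to 842), with PBS. The ratio of the sums was 0.965, and its interval of 0.903 to 1.03 held 1. The libraries differed in how this sum was divided among the genes.

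Irf1 and Irf2 are the founding pair of the family. Irf1 had 735 counts with IL-33, or 180.1 CPM (167 to 194), and 331 counts with PBS, or 210.3 CPM (188 to 234). These intervals overlap at their edges. The Irf1 ratio was 0.856 (0.751 to 0.978), a small difference whose direction is the same under each scaling tried. With TMM (trimmed mean of M-values) scaling it was 0.931, and its interval of 0.817 to 1.06 held 1. Irf2 had 641 counts with IL-33, or 157 CPM (145 to 170), and 107 counts with PBS, or 68.0 CPM (55.7 to 82.2). The intervals of the 2 libraries lay far apart. The Irf2 ratio was 2.31 (1.88 to 2.86), a log2 fold of 1.20. In the range of mean CPM that holds Irf2, 100 to 300 (1415 genes), 3.04% were at least 2-fold higher, or 43 genes, against 66 with TMM scaling, 65 without the 20 highest genes and 64 with median-of-ratios size factors. Irf2 is spread over a long locus at chromosome 8, 46739732 to 46847458 (GRCm38, plus strand), whereas Irf1 is a compact gene at chromosome 11, 53770014 to 53778374 (plus strand).

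The balance between these genes can be read within each library, free of any scaling between libraries. There were 1.15 Irf1 counts per Irf2 count with IL-33 (1.03 to 1.28) and 3.09 with PBS (2.48 to 3.88). The ratio of these ratios was 0.371, with an interval of 0.288 to 0.475. The pairs compared in this way were chosen after the values were seen, and transcript length cancels in the comparison between libraries.

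**Figure D2:**
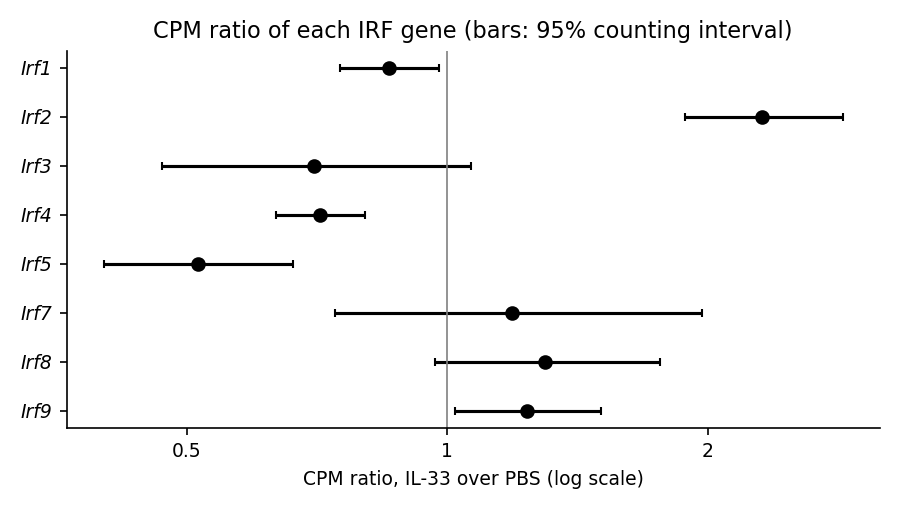
Ratio of CPM in the IL-33 library over the PBS library for each IRF gene (log axis), with exact 95% counting intervals and a line at 1. Irf2 lies at 2.31 and Irf5 at 0.515, and the intervals of Irf3, Irf7 and Irf8 cross 1.

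Upstream sequence is shown for the pair with the largest differences, Irf2 and Irf5, and for Irf1 and Irf8, the other members with a match to an interferon-type element. Each run covers bases 250 to 51 before the RefSeq transcript start (GRCm38.p6), written 5′ to 3′, with capitals marking matches to the core of the interferon-stimulated response element (ISRE), which is GAAA and GAAA with 2 unspecified bases between them, and to the STAT element (GAS), which is TTC and GAA with 3 between them.
Irf2 (chr8:46739495-46739694, plus strand): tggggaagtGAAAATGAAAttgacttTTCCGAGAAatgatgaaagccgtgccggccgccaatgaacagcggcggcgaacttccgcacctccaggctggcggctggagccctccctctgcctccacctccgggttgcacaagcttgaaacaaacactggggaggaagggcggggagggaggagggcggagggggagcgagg
Irf1 (chr11:53769764-53769963, plus strand): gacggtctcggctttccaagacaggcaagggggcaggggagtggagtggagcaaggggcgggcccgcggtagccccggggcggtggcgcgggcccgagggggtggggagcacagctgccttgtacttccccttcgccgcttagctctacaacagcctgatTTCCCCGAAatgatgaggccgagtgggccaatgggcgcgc
Irf8 (chr8:120736108-120736307, plus strand): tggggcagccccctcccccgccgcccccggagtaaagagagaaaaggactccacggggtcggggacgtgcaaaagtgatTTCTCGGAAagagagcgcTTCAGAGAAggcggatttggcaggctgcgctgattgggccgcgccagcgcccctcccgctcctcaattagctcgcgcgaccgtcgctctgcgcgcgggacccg
Irf5 (chr6:29526375-29526574, plus strand): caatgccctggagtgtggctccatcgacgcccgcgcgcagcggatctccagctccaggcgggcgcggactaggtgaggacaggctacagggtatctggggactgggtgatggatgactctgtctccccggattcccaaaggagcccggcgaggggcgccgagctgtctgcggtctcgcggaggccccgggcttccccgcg
The table of RefSeq starts matched all 8 members, with 11 start sites in all, and the 250 bases before each start were searched on both strands. The Irf2 window held the ISRE core as GAAAATGAAA and a GAS match as TTCCGAGAA. A further motif, the ETS-IRF composite of GGAA and GAAA with 2 bases between them, was matched there by GGAAGTGAAA, which overlaps the ISRE match. Of all 32851 upstream windows of this length, 2.98% held the ISRE core, 7.02% the GAS element and 2.30% the ETS-IRF composite. Irf1 held the GAS match TTCCCCGAA, and Irf8 held TTCTCGGAA and TTCAGAGAA. No ISRE, GAS or ETS-IRF match lay in the windows of Irf3, Irf4, Irf5, Irf7 or Irf9. The AP-1 element TGANTCA, found in 6.75% of windows, and the AP-1-IRF composite, the same element and GAAA with 4 bases between them, found in 0.0974%, were in 0 of the 11 member windows. A match is a run of letters only, and no binding was measured.

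Irf4, with Irf1, stood at the top of the family per length of merged exons in both libraries, and its level was lower in the IL-33 library. It had 812 counts there, or 199 CPM (186 to 213), against 439 counts, or 279 CPM (253 to 306), in the PBS library. The intervals do not overlap, and the ratio was 0.713 (0.634 to 0.803). Its closest relative Irf8, best known from myeloid and B cells, was far below it per length of merged exons. The median coding transcript has 4761 bases for Irf4 and 1777 for Irf8, whose longest has 3469. By the length of the median coding transcript the gap was smaller. Irf4 then stood at 41.8 CPM per kb against 27.9 for Irf8 with IL-33, and at 58.6 against 21.5 with PBS. Irf8 had 202 counts, or 49.5 CPM (42.9 to 56.8), with IL-33 and 60 counts, or 38.1 CPM (29.1 to 49.1), with PBS. These intervals overlap, and the Irf8 ratio of 1.30 had an interval of 0.969 to 1.76 that held 1. With TMM scaling the Irf8 ratio was 1.41, and its interval of 1.05 to 1.92 left out 1. There were 4.02 Irf4 counts per Irf8 count with IL-33 and 7.32 with PBS, a ratio of ratios of 0.549 (0.396 to 0.755). Irf4 lies at chromosome 13, 30749226 to 30766976, and Irf8 at chromosome 8, 120736358 to 120756694, both on the plus strand.

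The genes of proteins that bind DNA with IRF4 or IRF8 had a median below that of all genes, and most lay within 2-fold. Of 13 listed, 9 passed the floor, with 0 higher, 1 lower and a median log2 fold of -0.40, against 15.5% higher, 16.3% lower and a median of -0.08 over all genes. The lower gene was Jun, an AP-1 subunit, at 16.4 against 47.7 CPM. Ikzf1 (Ikaros) stood at 266 and 261 CPM, and Ikzf3 (Aiolos) at 237 and 413 CPM, a ratio of 0.574 (0.519 to 0.635). Batf, the AP-1 partner of IRF4 in T cells, was at 38.2 and 54.0 CPM, and Junb at 198 and 184 CPM. Batf and Junb were picked with their values in view. The gene of PU.1, listed in the table under its older symbol Sfpi1, and the genes Batf2 and Batf3 had 0 counts in both libraries.

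The genes that induce Irf4 downstream of the antigen receptor also had a median below that of all genes. Of 11 listed and compared, 0 were higher, 2 were lower and 9 lay within 2-fold, with a median log2 fold of -0.37. Over all genes compared, 15.5% were higher and 16.3% lower. Rel, the NF-kB subunit c-Rel that is known to drive Irf4 transcription in lymphocytes, had 60.8 against 141 CPM, which is a ratio of 0.431 (0.358 to 0.519). Mtor, the growth kinase, was at 11.5 against 51.5 CPM on 47 and 81 counts. Nfkb1 was at 517 and 668 CPM, and Lck, the kinase that starts receptor signalling, at 478 and 546 CPM.

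Genes known to depend on Irf4 in effector Treg cells lay on both sides of 0. Of 17 listed, 16 passed the floor, with 2 higher, 1 lower, 13 within 2-fold and a median log2 fold of 0.02. The shares over all genes were 15.5% higher and 16.3% lower. Bhlhe40, a transcriptional repressor, was the lower gene, at 191 against 416 CPM, though with TMM scaling it came to rest just inside 2-fold. The higher genes were Tigit, on 47 counts against 3, and Ebi3, on 112 counts against 14. Klrg1, a receptor of differentiated cells, had a ratio of 1.55 (1.42 to 1.71), while Ctla4 at 0.990 and Icos at 0.980 were level. Prdm1, which encodes Blimp-1 and is known to need IRF4 in Treg cells, had 173 against 255 CPM, which is a ratio of 0.679 (0.600 to 0.770). Prdm1 was chosen after its values were seen.

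Irf5, Irf7 and Irf3 are the members activated by phosphorylation after innate sensing. Irf5 had 151 counts with IL-33, or 37.0 CPM (31.3 to 43.4), and 113 counts with PBS, or 71.8 CPM (59.2 to 86.3). The intervals do not overlap, and the ratio was 0.515 (0.401 to 0.664). On the scale with the pseudocount this was a log2 fold of -0.94, just inside the 2-fold threshold. In the range of mean CPM that holds Irf5, 50 to 100 (1522 genes), 8.15% were at least 2-fold lower, a threshold that Irf5 did not reach. That share was 6.05% with TMM scaling, 8.76% without the 20 highest genes and 6.12% with median-of-ratios size factors. Irf7 had 74 counts, or 18.1 CPM (14.2 to 22.8), with IL-33 and 24 counts, or 15.3 CPM (9.77 to 22.7), with PBS. Its ratio of 1.19 (0.742 to 1.97) held 1. Irf3 had 71 counts, or 17.4 CPM (13.6 to 21.9), and 39 counts, or 24.8 CPM (17.6 to 33.9), a ratio of 0.702 (0.469 to 1.07) that also held 1. At this depth the counts of Irf3 and Irf7 are compatible with any ratio inside these intervals, 1 included.

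Irf5 was also read against Irf8, since both are prominent in myeloid and B cells. There were 0.748 Irf5 counts per Irf8 count with IL-33 and 1.88 with PBS, a ratio of ratios of 0.397 (0.267 to 0.588). In bulk libraries such as these, fewer cells of a type and less RNA per cell cannot be told apart.

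The genes that act upstream of Irf5 and Irf7 through MyD88 had the lowest median of the pathway lists with at least 5 genes compared. Of 7 listed, 6 passed the floor, with 0 higher, 2 lower and a median log2 fold of -0.73. Among all genes, 15.5% were higher and 16.3% lower. Traf6, the ubiquitin ligase that is known to act on IRF5 and IRF7, had 24.0 against 59.1 CPM, which is a ratio of 0.406 (0.303 to 0.546). Chuk, a kinase of IRF7, was at 50.2 against 103 CPM, and it lay within 2-fold under each of the other scalings. Myd88 was at 78.7 and 101 CPM, and Irak1 at 85.5 and 82.6 CPM. The nucleic acid sensors and kinases upstream of Irf3 and Irf7 lay mostly within 2-fold, with 1 higher, 0 lower and 13 within 2-fold of 14 compared, and a median of 0.11. Ddx58, which encodes the RNA sensor RIG-I, had 127 against 48.9 CPM, which is a ratio of 2.60 (2.04 to 3.35). Tank, an adaptor of the IRF3 kinases, was at 182 and 107 CPM, and Tmem173, the DNA-sensing adaptor STING, at 137 and 187 CPM. The genes of the IRF3 kinases lay within 2-fold, with Ikbke at a ratio of 0.510 (0.403 to 0.648) and Tbk1, chosen after its values were seen, at 0.599 (0.514 to 0.700).

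Irf9 had a slightly higher level in the IL-33 library. It had 449 counts, or 110.0 CPM (100.1 to 121), against 140 counts, or 89.0 CPM (74.8 to 105), and these intervals overlap. The ratio was 1.24, with an interval of 1.02 to 1.51 that barely left out 1. Within each library there were 0.611 Irf9 counts per Irf1 count with IL-33 and 0.423 with PBS, a ratio of ratios of 1.44 (1.14 to 1.83).

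The type I interferon targets went both ways. Of 29 listed, 27 passed the floor, with 6 higher, 3 lower, 18 within 2-fold and a median of 0.07. For comparison, 15.5% of all genes were higher and 16.3% lower. The higher genes were Oas1a, Oas3, Oasl1, Oasl2, Bst2 and Zbp1, and the lower genes were Mx1, Mx2 and Ifitm3. Bst2, which encodes the virus-tethering protein tetherin, was at 34.3 CPM against 12.1 CPM, and Mx1, an antiviral GTPase gene, at 30.4 against 85.1 CPM. The targets with the highest counts differed little, with Samd9l at 421 and 428 CPM and Trim30a at 442 and 393 CPM. Of the targets of IRF1 and interferon-gamma, there were 0 higher, 1 lower and 26 within 2-fold of 27 compared, and a median of -0.02. B2m, the light chain of MHC class I, had a ratio of 1.46, the proteasome activator gene Psme2 of 1.23 and the peptide transporter gene Tap1 of 0.534 (0.462 to 0.618). The lower gene was Il12rb1, at 21.6 against 48.3 CPM.

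**Figure D3:**
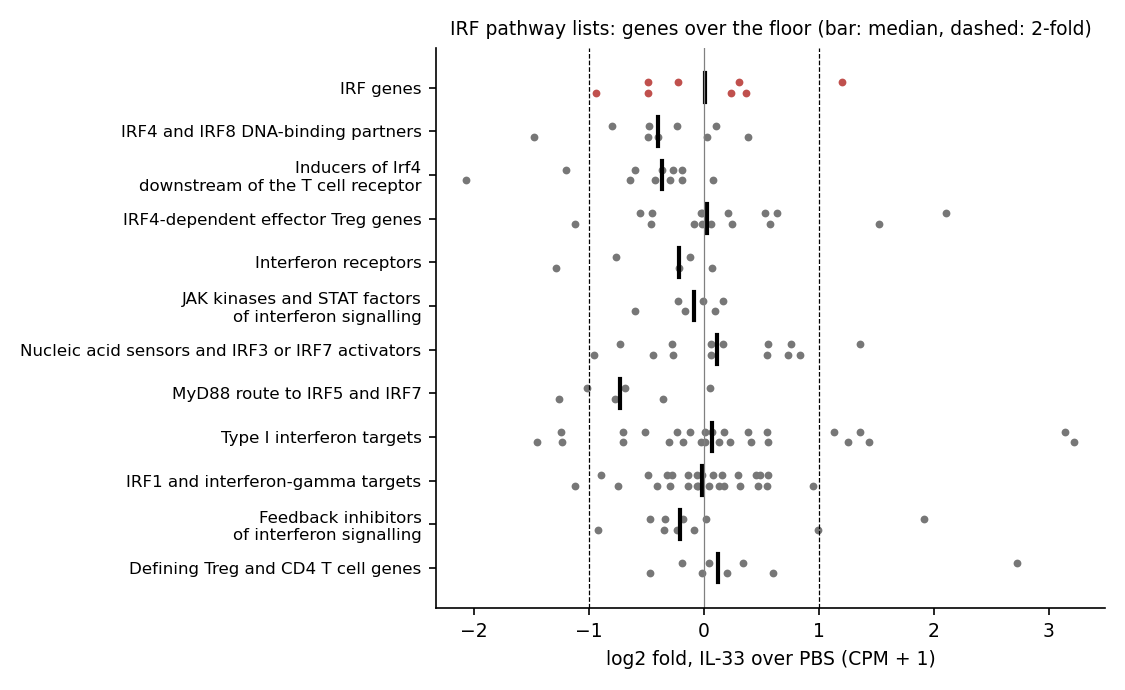
Log2 fold (IL-33 over PBS, CPM plus 1) of each gene over the floor in the IRF genes (red) and in the lists of partners, inducers, receptors, signalling genes and targets (grey); bars are medians and dashed lines mark 2-fold. The medians run from -0.73 for the MyD88 route to 0.12 for the defining Treg and CD4 T cell genes, and single genes of most lists lie on both sides of 0.

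Most receptor and signalling genes of the interferon pathway lay within 2-fold. Of 6 receptor genes, 5 passed the floor, with 0 higher, 1 lower and a median of -0.22. All genes compared had shares of 15.5% higher and 16.3% lower. Ifngr1, the ligand-binding chain of the interferon-gamma receptor, was at 1629 and 1553 CPM, while its partner chain Ifngr2 was at 13.2 against 33.7 CPM on 54 and 53 counts. Ifnar1, of the type I receptor, was at 175 and 205 CPM, and Il10rb, the shared chain of the type III receptor, at 73.8 and 126 CPM, a ratio of 0.583 (0.486 to 0.701). All 6 genes of the JAK and STAT list lay within 2-fold, with a median of -0.09. Jak1 was at 888 and 1041 CPM, Stat3 at 655 and 734 CPM, and Tyk2, the kinase of the type I receptor, had a ratio of 0.655 (0.547 to 0.787). No interferon gene reached the floor. Ifng had 1 count with IL-33 and 0 with PBS, and the other 8 interferon genes listed had 0 in both, which allows up to 0.735 CPM and 1.91 CPM. Among feedback inhibitors of the pathway, 1 of 10 was higher and 0 were lower. That gene, Trim21, a ubiquitin ligase of IRF proteins, had 70 counts against 6, a ratio of 4.50 (1.97 to 12.7). The phosphatase genes Ptpn1, at 144 and 163 CPM, and Ptpn2, at 118 and 150 CPM, had the highest counts, and Rbck1 had a ratio of 0.520 (0.406 to 0.667).

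The IRF2-binding corepressors were measured beside Irf2 itself. Irf2bp2 had 92.1 against 201 CPM, which is a ratio of 0.459 (0.394 to 0.535), so it stood on the other side from Irf2. With TMM scaling its log2 fold was -0.995, just inside 2-fold. Irf2bpl, listed under the older symbol 6430527G18Rik, was at 80.4 and 85.8 CPM, and Irf2bp1 had 0 counts and 2 counts.

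**Figure D4:**
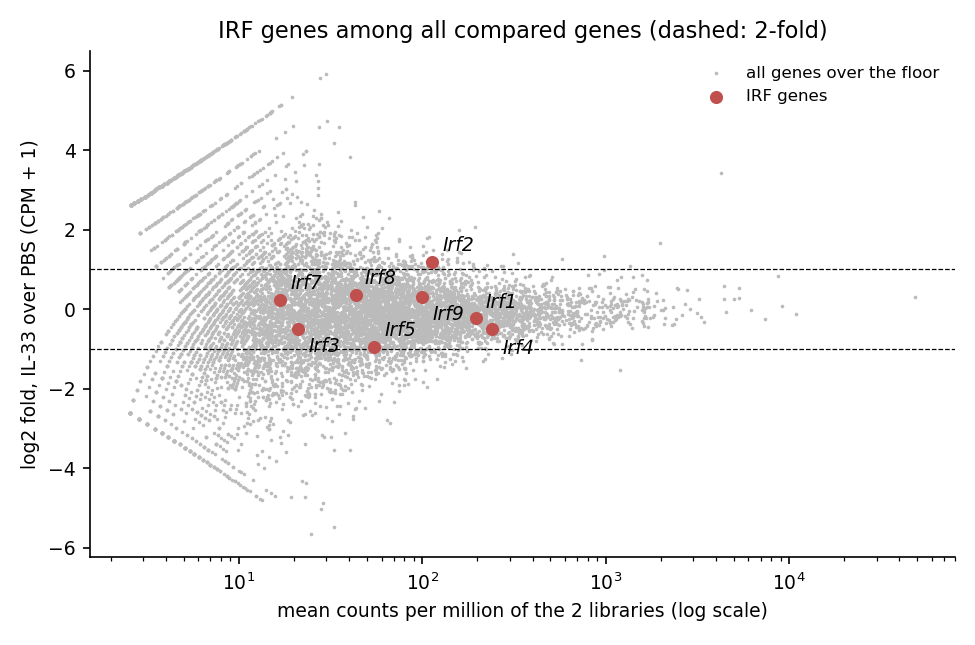
Mean CPM of the 2 libraries (log axis) against log2 fold, IL-33 over PBS (CPM plus 1), for all 9005 genes over the floor (grey) and the IRF genes (red); dashed lines mark 2-fold. Irf2 lies above the upper line at 1.20, Irf5 just inside the lower line at -0.94, and the other 6 members between them.

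Levels of different genes are compared per kb of merged annotated exons. In the IL-33 library the order was Irf1 (45.3 CPM per kb), Irf4 (40.6), Irf2 (21.2), Irf9 (20.4), Irf5 (12.7), Irf8 (7.02), Irf3 (5.05) and Irf7 (4.80). Intervals of neighbours overlapped for Irf1 and Irf4, for Irf2 and Irf9, for Irf8 and Irf3, and for Irf3 and Irf7. In the PBS library the order was Irf4 (56.9), Irf1 (52.9), Irf5 (24.7), Irf9 (16.5), Irf2 (9.19), Irf3 (7.20), Irf8 (5.40) and Irf7 (4.04). There, neighbours from Irf2 downwards overlapped, as did Irf4 and Irf1. By this length Irf1 and Irf4 led in both libraries. By the length of the median coding transcript, Irf2 ranked first in the IL-33 library and second in the PBS library, so the order across genes depends on the length used. That median is 550.5 bases for Irf2 and 833 for Irf1, whose longest annotated transcripts have 3965 and 2137 bases. For Irf4 it is 4761 bases, against a longest of 4764. Whether the short annotated transcripts are complete was not tested. By the longest transcript, Irf2 ranked 3 with IL-33 and 5 with PBS. The highest member exceeded the lowest by 9.43 times with IL-33 and 14.1 times with PBS.

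As shares of the 8 genes' counts, Irf4 made up 25.9% with IL-33 (24.4 to 27.5, Wilson 95% interval) and 35.0% with PBS (32.4 to 37.7). Irf1 made up 23.4% (22.0 to 24.96) and 26.4% (24.1 to 28.9). Irf2 made up 20.4% (19.1 to 21.9) and 8.54% (7.12 to 10.2), the widest gap of the family, and Irf5 4.82% (4.12 to 5.62) and 9.02% (7.56 to 10.7). Irf9 made up 14.3% and 11.2%, Irf8 6.44% and 4.79%, Irf3 2.26% and 3.11%, and Irf7 2.36% and 1.92%. The higher share of Irf2, by 11.9 percentage points, stood beside differences (IL-33 minus PBS) of -9.13 points for Irf4, -4.20 for Irf5 and -2.97 for Irf1. Shares are parts of a fixed whole, so a higher share of Irf2 by itself lowers the summed share of the other genes. The Irf1 intervals overlap, and per kb of merged exons its difference was -1.09 points.

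**Figure D5:**
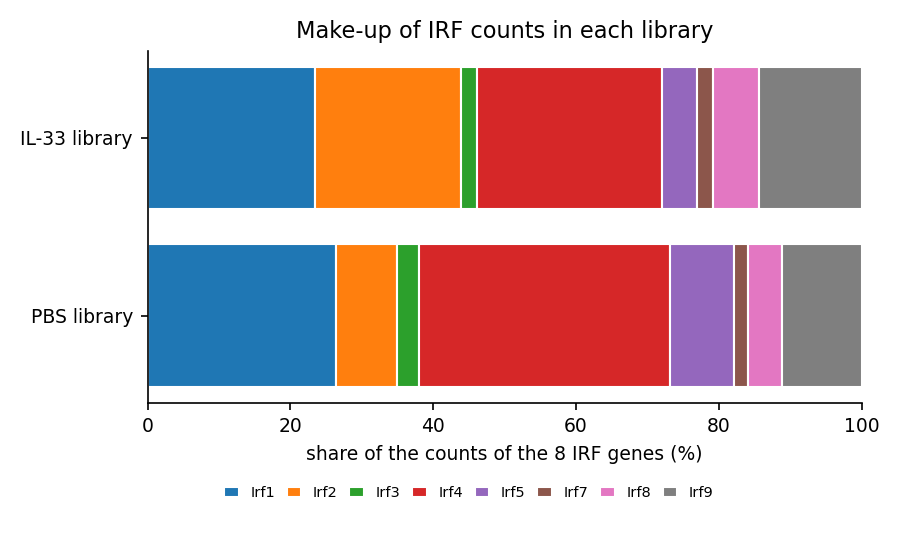
Share of the summed counts of the 8 IRF genes taken by each gene, in percent, in the IL-33 library (upper bar) and the PBS library (lower bar). The Irf2 segment is 20.4% against 8.54%, and the Irf4 segment 25.9% against 35.0%.

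The genes whose levels in the 2 libraries came nearest to a member, by distance on the log2 (CPM plus 1) scale, were Cetn3 for Irf1, Ndufb3 for Irf2, Eif4b for Irf4, Sec24a for Irf5 and Tshz1 for Irf9. The distances were 0.0090, 0.051, 0.010, 0.031 and 0.011. They rest on 2 libraries, and nothing about shared control is drawn from them.

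Several members share annotated sequence with a neighbouring gene, and the strand setting of the counting is not given in the sources used here. Irf5 (chromosome 6, 29526625 to 29541871) had 411 bases of exon, 14.1% of its merged exons, in common with Tnpo3 on the opposite strand. Tnpo3, a nuclear transport receptor gene, stood at 92.1 and 97.2 CPM, a ratio of 0.948 (0.783 to 1.15), unlike Irf5. Irf9 (chromosome 14, 55603571 to 55610030) shared 123 bases of exon with Rnf31 on the same strand. Rnf31 stood at 31.9 and 25.4 CPM on 130 and 40 counts, a ratio of 1.25 (0.873 to 1.83) near that of Irf9, and the part of the overlap in the Irf9 value was not tested. Of the Irf9 sequence, 6.04% of the 25-base stretches, the read length here, occur in transcripts of other genes. The share of such stretches was 12.9% for Irf5, 3.24% for Irf1, 1.87% for Irf3, 0.590% for Irf2, 0.516% for Irf7 and 0% for Irf4 and Irf8. Irf3 (chromosome 7, 44997648 to 45002848) overlapped Bcl2l12 by 88 bases of exon, and Irf7 (chromosome 7, 141262706 to 141266481, minus strand) overlapped Phrf1 by 45. No 25-base stretch was shared between any of the 8 members.

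Markers of other cell types that express Irf5 or Irf8 summed to at most 123 CPM a list. A symbol listed at 0 may not mean that its RNA was absent, since Cd74 was at 0 beside H2-Aa with 97 counts in the PBS library, Cd8a at 0 beside Cd8b1 with 88 in the IL-33 library, and Scaf1, a gene next to Irf3, at 0 in both. The 13 monocyte and macrophage markers summed to 44.6 CPM with IL-33 and 67.4 CPM with PBS. Lyz2 led with 19.1 against 38.8 CPM, then Itgam with 16.2 against 7.63 CPM. Of the 3 that passed the floor, 0 were higher and 1, Ms4a7, was lower, against 15.5% and 16.3% of all genes. On the scale with the pseudocount, Lyz2 and Itgam lay just inside 2-fold. The macrophage markers Cd68 and Fcgr1 were listed at 0 in both libraries. The 14 dendritic cell markers summed to 43.1 CPM with IL-33 and 123 CPM with PBS, led by the MHC class II genes H2-Aa, at 4.41 against 61.6 CPM, and H2-Eb1, at 2.45 against 26.7 CPM. Without these 2 genes the other 12 markers summed to 36.3 and 34.3 CPM. Without H2-Ab1, a further MHC class II gene, as well, the other 11 summed to 34.6 and 22.2 CPM. Itgax, on 0 counts against 19, and H2-Ab1, on 7 against 19, were also lower in the IL-33 library. Siglech, on 28 counts against 2, and Ccr9, on 53 against 2, were higher. Flt3, Clec9a, Cd209a, Clec10a, H2-DMb2 and Cd74 were listed at 0 in both. The 9 B and plasma cell markers summed to 41.7 and 29.9 CPM, led by Cd79b at 29.7 and 23.5 CPM and Blk at 6.37 and 0.635 CPM, and Pax5 and Ebf1 were at 0. The macrophage sum and, through H2-Aa and H2-Eb1, the dendritic cell sum were lower in the IL-33 library, as Irf5 was, and Irf8 was not lower. The B and plasma cell sum was higher there. Of single macrophage markers, Itgam was higher, and Lyz2 and Ms4a7 were lower. The part of these cell types in the Irf5 difference was not tested.

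Markers of further cell types give the rest of the picture. The 6 fibroblast markers summed to 0 CPM with IL-33 and 66.1 CPM with PBS, from Col3a1 and Dcn for the most part, with Col1a1, Col1a2 and Lum at 0 in both. Neutrophil markers summed to 4.41 and 5.72 CPM, led by Csf3r, with S100a8 and S100a9 at 0. Cd8b1 was at 21.6 and 13.3 CPM with Cd8a at 0. Endothelial markers summed to 49.3 and 52.1 CPM, mostly from Pecam1 at 48.5 and 45.1 CPM. Cdh5, also endothelial, was lower in the IL-33 library, at 0.735 against 6.99 CPM on 3 and 11 counts. Muscle markers, from Acta1 and Myh4, summed to 0.245 and 1.91 CPM.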

How the data were processed

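Poly(A) RNA of 2 sorted Treg libraries, 1 per group, was sequenced as paired reads of 25 bp, per the labels' protocols. The authors deposited raw counts per gene symbol for 23337 symbols. The submitters' processing notes name mm10, TopHat2 2.0.10 and Cufflinks 2.2.1. The role of each, the annotation and the strand setting: not given in the sources used here. Of the columns of the table, 0 were unused, and 0 rows lacked a name. The members and gene lists were chosen with earlier results of these data known. There were 23 lists of 244 symbols, of which 240 were in the table, some under older symbols listed by RefSeq. These older symbols were added after the table was seen. The list of natural killer and innate lymphoid cell markers is not reported here.

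CPM was computed from the library totals of 4080791 and 1573707, a ratio of 2.59. A single count is worth 0.245 and 0.635 CPM, and a count of 0 allows up to 3 counts. No test was possible with 1 library per group. The named genes are all members and, from each list, the 2 with the highest mean CPM and the 2 farthest from 0 with a mean of at least 20 CPM. From each list of other cell types they are the 2 with the highest mean CPM. For each member with a mean of at least 50 CPM, the nearest gene over both libraries is named. Genes whose exons overlap those of a member are named too. Other genes are said to have been chosen after their values were seen. Genes listed by call or at 0 are also named, and some listed by call, such as Oas1a and Mx2, are given without counts. Positions and exon lengths come from GENCODE M21 (GRCm38, the assembly of mm10), and upstream sequences from RefSeq (GRCm38.p6). Alternatives were other pseudocounts, floors, thresholds and scalings, and edgeR 4.0.16 gave the TMM factors. The scripts were tested on simulated data of known folds. Python 3.11.15, numpy 2.4.6, pandas 2.3.3, scipy 1.17.1, matplotlib 3.10.9 and R 4.3.3 were used.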

Additional observations from a re-analysis of the deposited data

How the results depend on the processing

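No paired analysis was possible because each group holds 1 library, and no library could be left out. Under other pseudocounts (0.5 and 5 CPM) and scalings (TMM, totals without the 20 highest genes, median-of-ratios size factors), all 40 recomputed member log2 folds kept their direction and lay inside their counting interval. The counting interval left out 1 for 5 of 8 members under every scaling, but not for the same members: under the 3 other scalings Irf8 took the place of Irf1, and without the 20 highest genes the interval of Irf1 ended at 1.01. This comparison was chosen after seeing the data. The log2 fold of Irf2 ran from 1.15 to 1.32, that of Irf5 from -0.95 to -0.82 and that of Irf1 from -0.22 to -0.10. At a threshold of 1.5-fold, 1 member was lower in place of 0, and over all genes 2116 were higher and 2465 lower. With no floor 2133 genes were higher, and with a floor of 20 CPM 595 were higher and 737 lower. The alternative's own construction sets these counts. TMM scaling adds 0.12 to log2 folds and moves the median of all genes to 0.05. By the longest annotated transcript, 14 of 16 ranks of members per length were the same, and Irf1 led in both libraries. By the median coding transcript, which has only 550.5 bases for Irf2, 11 of 16 ranks moved. Irf2 then ranked first in the IL-33 library and second in the PBS library. Per kb, the gain in the share of Irf2 was 8.32 percentage points. Depth limits Irf3 and Irf7 most, with 39 and 24 counts in the PBS library.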
